A study of Nannochloropsis oceanica with 15 samples.

Results

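Cells kept for 12 h in blue light were compared with cells kept for the same 12 h in red light, in the marine microalga Nannochloropsis oceanica, strain IMET1, wild type. The comparison took its members from the labels alone: the 3 libraries of blue 12 h and the 3 of red 12 h, which are 6 of the 15 libraries of the series. Of the 9756 gene models, the 9370 with an expression of at least 1 FPKM in 3 or more of these 6 libraries were tested, and the other 386 were not. FPKM gives sequenced fragments per kilobase of gene model, scaled to a total per library, so levels can be compared between genes of unequal length.

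RNA sequencing was used to follow how the alga responds to a change in light colour. All cultures grew in column bioreactors in continuous light of about 80 ± 5 µmol photons per square metre and second. Temperature was 25 °C, the air held 0.04% CO2 and was bubbled at 0.6 volumes per volume of medium and minute, and the medium held 427.5 mg/L of sodium nitrate. Cells in white light were sampled at 0 h, and cells switched to red or blue light were sampled after 12 h and 24 h, with 3 libraries in each of the 5 groups. Red 12 h and blue 12 h thus shared strain, genotype, stated light intensity and hour, and differed in the colour of the light. The wavelengths of the lamps are not given in the sources used here, and neither is the column from which each library came.

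The photosynthetic pigments of Nannochloropsis are chlorophyll a, which absorbs blue and red light, and carotenoids, mainly violaxanthin, which absorb blue light and hardly any red. The genus has neither chlorophyll b nor chlorophyll c. Stramenopile algae of this kind sense blue light through aureochromes, transcription factors with a light-sensing LOV domain, and through cryptochromes. The gene models carry a gene name for DGAT1A alone, so no light receptor, antenna protein or other pathway could be picked out by name, and no gene marks a library as red or blue independently of its label. The lists of triacylglycerol assembly and of light harvesting and light receptors matched 1 and 0 models.

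The 6 libraries fell into their labelled groups. They held 3882918 to 6442259 fragments in genes, as recovered from the steps of the low FPKM values, and 64 to 112 models were listed at 0. Across genes, log2(FPKM + 1) correlated at 0.990 to 0.992 between libraries of 1 colour and at 0.979 to 0.982 between colours. A chi-square of the recovered fragments, divided by its degrees of freedom, was 1.35 to 1.96 within a colour, above sampling noise in every pair, and 8.14 to 11.04 between colours. The first principal component, with 54.3% of the variance, separated blue from red, and the second, with 13.4%, spread the blue libraries. The median coefficient of variation of a gene was 6.78% in red and 6.90% in blue. It ran from 18.7% and 20.6% for genes under 5 FPKM to 3.44% and 3.22% for genes over 100 FPKM, so differences of a given size are measured less precisely in weakly expressed genes.

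Many genes differed between the colours, mostly by small amounts, and the large differences were mostly lower levels in blue. The limma test, with Benjamini-Hochberg adjustment over the 9370 genes and a threshold of 0.05, called 2471 genes (26.4%). Of these, 1174 (12.5%) were higher and 1297 (13.8%) were lower in blue. The median called difference was 0.31 on the log2 scale among the higher genes, or 1.24-fold, and -0.42 among the lower genes, or 1.34-fold in the other direction. Over all 9370 genes the median difference was -0.01. In 2450 of the 2471 called genes (26.1% of those tested) the 3 blue libraries lay all above or all below the 3 red ones. Of all tested genes 4007 (42.8%) had groups that did not overlap in this way.

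**Figure D1:**
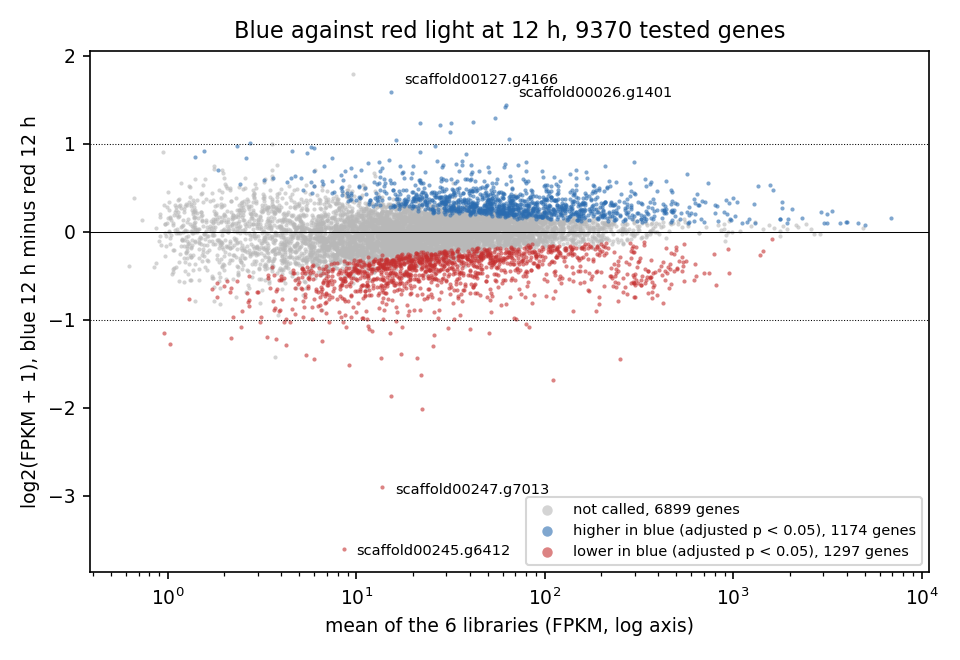
Difference between blue 12 h and red 12 h for each of the 9370 tested genes, as log2(FPKM + 1) in blue minus red (vertical axis), against the mean FPKM of the 6 libraries (horizontal log axis). Blue points are the 1174 genes called higher in blue, red points the 1297 called lower, grey points are not called and dotted lines mark 2-fold; 3 red points lie at or under -2 and no blue point reaches 2.

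The excess of lower genes grew with the size of the difference. Under 1.25-fold, 640 genes were called higher and 372 lower. Between 1.25-fold and 1.5-fold the counts were 438 and 634, and between 1.5-fold and 2-fold they were 84 and 251. At least 2-fold differences were called in 12 genes that were higher (0.128% of those tested) and 40 that were lower in blue (0.427%), and in all 52 the groups did not overlap. A 4-fold difference was reached by 3 lower genes and by no higher gene. At any p, 13 genes were at least 2-fold higher and 41 at least 2-fold lower. As bulk RNA was measured, a lower level may reflect less transcript per cell or fewer cells that carry it, and these cannot be told apart.

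The number of small differences called depends on which libraries estimate the spread, and the count of genes with at least 2-fold differences moved less, from 52 to 49 with 15 libraries and to 43 with the 12 red and blue ones. With all 15 libraries in 1 fit, 268 genes (2.86%) were called, 70 higher and 198 lower. That fit includes red 24 h library 1, which lies far from its group although it is not part of this comparison. Its median was 17.8 FPKM, against 22.3 and 22.9 in red 24 h libraries 2 and 3. Its 100 most abundant genes took 38.4% of its FPKM sum, against 29.0% and 27.2% in those libraries. Without red 24 h library 1, the other 14 libraries gave 1544 genes (16.5%), 660 higher and 884 lower. All 12 genes that were at least 2-fold higher and 37 of the 40 that were at least 2-fold lower were also called with 15 libraries. Nothing in the labels tells whether libraries 1, 2 and 3 of a colour stem from separate cultures. The p-values therefore measure how far these libraries spread, which may be technical variation alone.

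The largest increase among called genes whose groups did not overlap was in scaffold00127.g4166, a model of 13 exons near the start of its scaffold (positions 6916 to 11385, plus strand, exons of 2184 nt in all). Blue 12 h libraries 1, 2 and 3 held 22.7, 25.1 and 22.7 FPKM, and the red 12 h libraries 7.95, 7.30 and 6.29 FPKM. Every blue library was thus above every red one. The means of 23.5 ± 1.41 and 7.18 ± 0.837 FPKM (SD, n = 3) differed 3.27-fold, and the log2 difference was 1.59 ± 0.11 (SE; limma adjusted p = 5.94e-06). Cells in white light at 0 h had held 33.3 ± 3.82 FPKM, so the red level was the lowest of the 3 and blue lay between red and white. The model on its left (3776 to 6638), 277 nt away on the same strand, was also called higher, with a log2 difference of 0.21 (adjusted p = 0.00838). The next gene on the right begins 4 nt after it on the other strand and showed a log2 difference of -0.03 (adjusted p = 0.837). For a single gene, an exact two-sided permutation test of 3 against 3 libraries cannot go below 0.10, so these p-values rest on the spread that limma shares across genes.

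The second named increase, scaffold00026.g1401, belongs to a pair of neighbouring genes with nearly the same values in red and blue at 12 h. This model of 4 exons (1122018 to 1124826, plus strand, exons of 2027 nt) held 84.7, 93.6 and 96.6 FPKM in the blue libraries and 34.1, 36.0 and 29.4 FPKM in the red ones. Blue exceeded red 2.76-fold without overlap, with a log2 difference of 1.44 ± 0.08 (SE; limma adjusted p = 2.65e-06). The level in white at 0 h was 161 ± 21.0 FPKM, above both colours. Only 9 nt further, on the minus strand, a model of 1 exon (1124836 to 1125853) held 87.0, 93.4 and 89.5 FPKM in blue and 36.2, 30.4 and 32.6 FPKM in red, a log2 difference of 1.42 (adjusted p = 1.70e-06). The models converge tail to tail. The sources used here do not state whether fragments were counted by strand, so fragments of either transcript could have been assigned to the other.

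Among the genes lower in blue, scaffold00245.g6412 was almost absent in blue and moderately expressed in red. The model has 7 exons (49166 to 51460, plus strand, exons of 1169 nt). Its blue libraries held 0.233, 0.733 and 0.418 FPKM, which stand for 1, 4 and 2 fragments, and its red libraries held 20.2, 16.6 and 13.6 FPKM, from 147, 81 and 64 fragments. No other tested gene was under 1 FPKM in the mean of 1 colour and at least 5 FPKM in the other. The mean FPKM was 36.3-fold lower in blue. Pooled over libraries, the 292 red and 7 blue fragments gave a ratio of 35.9, with an exact 95% interval of 17.2 to 90.0 that covers counting error only. The log2 difference was -3.60 ± 0.18 (SE; limma adjusted p = 1.78e-06), and it is smaller than the fold because 1 was added to each FPKM. White-light cells held 14.3 ± 0.520 FPKM, which is within the range of the red libraries.

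The next largest decrease, in scaffold00247.g7013, had the opposite relation to white light. This model of 1 exon (1272687 to 1275060, minus strand, 2374 nt) held 1.92, 3.30 and 2.31 FPKM in blue and 23.1, 27.4 and 24.6 FPKM in red. The highest blue library was far under the lowest red one, and the mean was 9.96-fold lower in blue (log2 difference -2.90 ± 0.15 SE, limma adjusted p = 1.78e-06). In white at 0 h it held 2.23 ± 0.350 FPKM, close to the blue level. Its neighbour on the right, 974 nt away and transcribed in the other direction, was also lower in blue, with a log2 difference of -0.97 (adjusted p = 0.000106). All 4 named differences kept their direction and passed the test in all 22 alternatives run for them. Not among these was limma's treat, which asks for a difference beyond 2-fold. It called 5 genes, 0 of them higher in blue, so neither named higher gene passed it. Where an alternative changed only the filter or the estimate of the spread, the difference was the same by construction. The 4 were also chosen as large called differences on the same libraries.

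**Figure D2:**
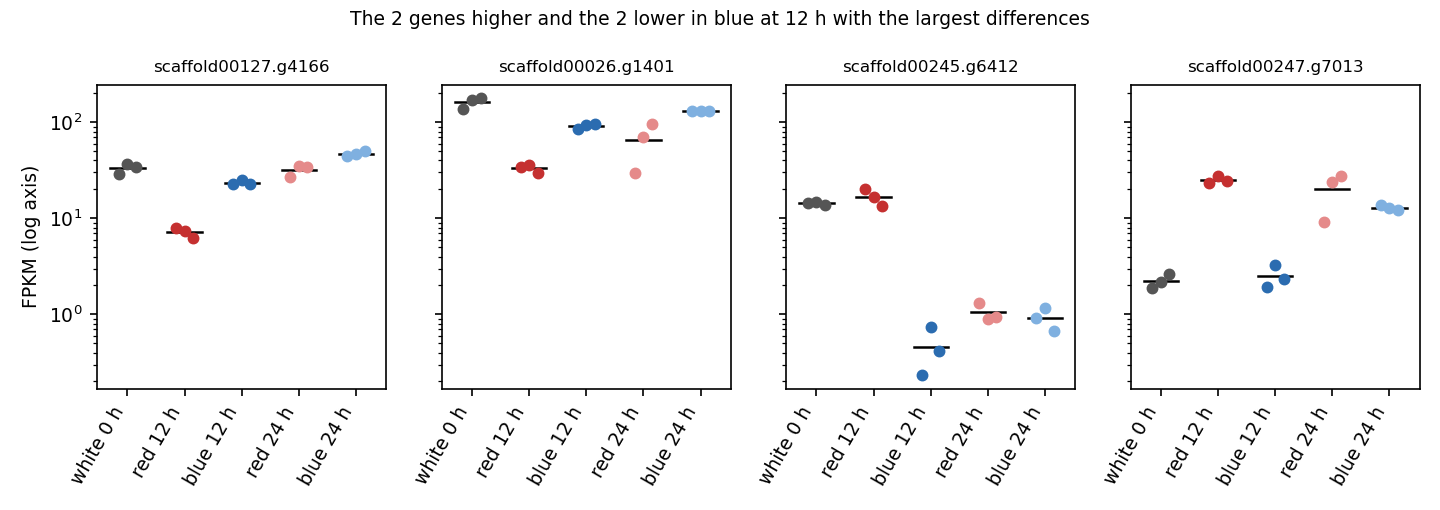
Expression in FPKM (log axis) of the 2 genes higher and the 2 genes lower in blue at 12 h with the largest differences, in all 15 libraries; points are libraries and lines group means. In scaffold00245.g6412 the 3 blue 12 h libraries lie between 0.233 and 0.733 FPKM and the red ones between 13.6 and 20.2, while at 24 h both colours lie near 1 FPKM.

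DGAT1A was not called at 12 h. It encodes a diacylglycerol acyltransferase, which adds the last fatty acid to diacylglycerol to make triacylglycerol, the storage oil of the alga. Blue libraries 1, 2 and 3 held 35.6, 33.8 and 36.8 FPKM and red libraries 34.8, 32.5 and 34.3 FPKM, so the groups overlapped. The log2 difference of 0.06 ± 0.07 (SE) did not pass (limma adjusted p = 0.528), and it passed in none of the 22 alternatives, where the adjusted p ran from 0.293 to 0.934.

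Of the 40 genes at least 2-fold lower in blue, white was below both colours in 11, between them in 22 and above both in 7. These are 27.5%, 55% and 17.5%, against 54.7%, 9.55% and 35.7% of all tested genes. A wide gap between the colours by itself leaves more room for white between them. The 3 described here had both colours above white. The following models were chosen after their values were seen and are given by position, since they have no name. On scaffold00354 a model of 1 exon (397542 to 401706) held 9.65, 7.23 and 7.89 FPKM in blue and 34.3, 35.3 and 39.3 FPKM in red. Its white libraries held 0.613, 0.430 and 0.548 FPKM, so both colours were far above white and red was the higher. On scaffold00066 a model of 2 exons (19473 to 20961) held 53.8, 52.2 and 50.4 FPKM in blue against 177, 167 and 166 FPKM in red. Here too the white libraries were lowest, with 20.3, 27.1 and 21.8 FPKM. On scaffold00271 a model of 5 exons (268111 to 270893) had the highest levels of all 52 genes, with 141, 124 and 136 FPKM in blue and 353, 372 and 374 FPKM in red. None of these 3 genes had a blue library within the red range.

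Of the 12 genes at least 2-fold higher in blue, white was below both colours in 4, between them in 2 and above both in 6. An example with white above both and an example with white below both are given. A model of 2 exons on scaffold00145 (777153 to 780709) held 39.2, 40.1 and 38.9 FPKM in blue and 14.7, 17.4 and 17.4 FPKM in red, against 77.5 to 93.1 FPKM in white. A model of 10 exons on scaffold00277 (112477 to 119961) held both colours above white, with 22.4, 22.7 and 21.2 FPKM in blue, 10.3, 10.4 and 10.1 FPKM in red and 6.78 to 8.93 FPKM in white. Over the 12 higher genes the median level was 42.0 FPKM in white, 18.9 in red 12 h and 44.2 in blue 12 h. Over the 40 lower genes it was 9.92 FPKM in white, 16.9 in red 12 h and 6.45 in blue 12 h. In these 2 sets the median blue level was the nearer to white. This did not hold for all called higher genes: the medians of the 1174 were 50.1 FPKM in white, 57.5 in red 12 h and 71.3 in blue 12 h, so red was the nearer. For the 1297 lower genes they were 23.5, 30.7 and 22.5 FPKM. The genes were chosen on the same red and blue libraries, so this is a description of the chosen genes. Over all tested genes the medians were 24.4, 24.6 and 24.1 FPKM.

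A pair of models with at least 2-fold differences were not called, and each rested on few fragments. They are short models of 1 exon, on scaffold00009 (259901 to 260101) and scaffold00271 (524061 to 524275), with 0 to 7 fragments per library. The first had a log2 difference of 1.79 ± 0.74 (SE; limma adjusted p = 0.103), the highest value of all genes, with red libraries at 14.8, 3.28 and 0 FPKM. Its blue libraries held 11.7, 11.2 and 16.8 FPKM and overlapped the red ones. Some called genes rested on as few fragments. The model on scaffold00127 at 99166, called at least 2-fold lower, had 0, 1 and 0 fragments in blue and 3, 2 and 2 in red. Of the 40 lower and 12 higher genes of at least 2-fold, 10 and 1 averaged under 5 FPKM, as did 948 of the 9370 tested genes.

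Called genes were most frequent among abundant transcripts. Of the 1088 genes over 100 FPKM, 36.9% were higher and 21.6% lower in blue. Between 20 and 100 FPKM these shares were 14.9% and 12.8% of 4260 genes, and between 5 and 20 FPKM they were 4.07% and 14.9% of 3074 genes. Among the 948 genes under 5 FPKM, 1.37% were higher and 6.22% lower. The spread between replicates also fell with the level, as given above, so smaller differences could pass in abundant genes than in weak ones. The balance of the directions turned as well. Abundant genes were called higher more often, and genes under 20 FPKM were called lower more often. The median difference was -0.08 between 5 and 20 FPKM and 0.08 over 100 FPKM. In the fit of 15 libraries the order over 100 FPKM was the other way, with 1.75% higher and 3.31% lower, and in the fit of 14 it was 20.04% and 15.1%.

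Among the 50 most abundant genes, 30 were higher and 3 lower in blue, with differences from -0.27 to 0.53 and a median of 0.10 on the log2 scale. These 50 genes took 18.8% of the FPKM sum in red and 20.03% in blue. The 100 most abundant genes of each library took 25.3% to 25.4% of the sum in the red libraries and 26.6% to 26.8% in the blue ones, and the median FPKM was 23.2 to 23.5 in red and 22.6 to 22.7 in blue. When all libraries were given the same distribution by quantile normalization, 10 of the 50 were higher and 12 lower. That step evens out the most abundant genes as a group by design, so this balance is no result. With equal library medians 36 were higher and 2 lower. With equal sums of the other genes the counts were 31 and 3, and with the length trend removed 35 and 2. As deposited, but with 14 libraries in the fit, 9 were higher and 1 lower, and with 15 libraries 1 was higher and 0 lower. Quantile normalization, which acts on classes of level by design, brought the shares between 5 and 20 FPKM to 7.71% higher and 8.95% lower. Those over 100 FPKM came to 31.3% and 25.4%. The total number of called genes was then 2268.

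**Figure D3:**
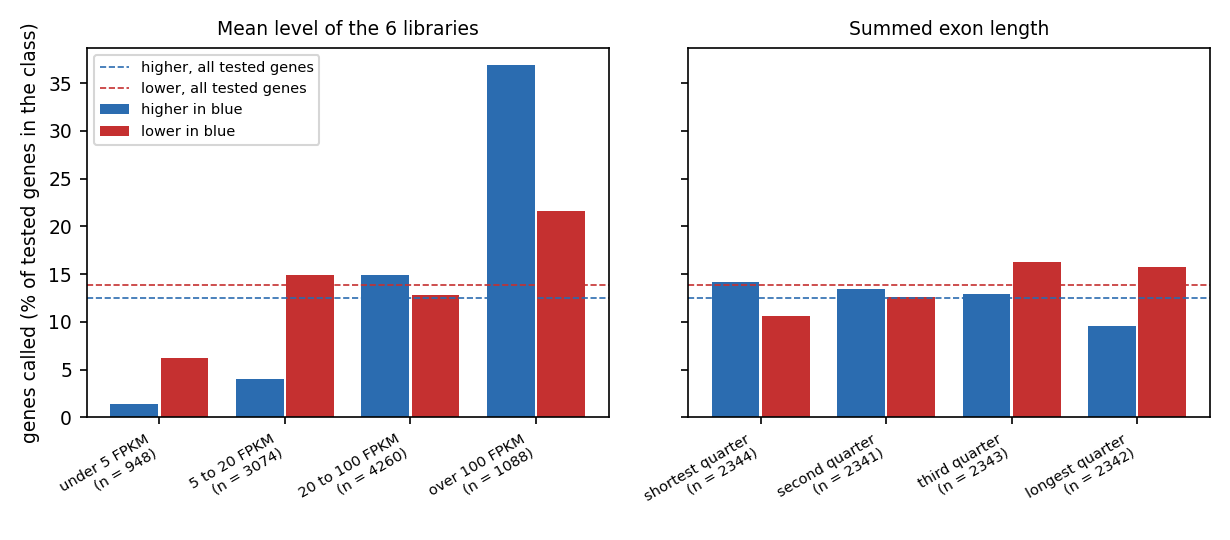
Share of tested genes called higher (blue bars) or lower (red bars) in blue 12 h, in classes of mean FPKM and in 4 equal classes of summed exon length, with the shares over all tested genes as dashed lines (12.5% and 13.8%). Over 100 FPKM the bars stand at 36.9% and 21.6%, under 5 FPKM at 1.37% and 6.22%; no error is shown, since each bar is a count over genes.

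Gene structure and place went with smaller differences in the share of calls. With all genes split into 4 equal classes of exon length, in the shortest class (188 to 1165 nt), 14.2% were higher and 10.7% lower, and in the longest (2546 to 25614 nt) 9.56% and 15.8%. With the trend of each library with length removed, these shares were 14.5% and 10.8% in the shortest and 15.1% and 11.3% in the longest class. That step evens out the length classes by design, so their likeness after it is no result. The mean fragment length of the libraries, recovered with the fragments, was 138 to 148 nt in blue and 139 to 143 nt in red. Of 712 genes with 8 or more exons 9.55% were higher and 12.2% lower, and of 2850 genes with 1 exon 12.9% and 13.1%. With the length trend removed these shares were 16.0% and 9.69%, and 15.1% and 11.4%, so the balance of directions turned. Equal library medians, with no length correction, turned it as well. The shares were then 13.3% and 10.8% with 8 or more exons, and 15.8% and 11.3% with 1 exon. Models among the first or last 3 of a scaffold were called in 20.1% of 308 cases, against 26.9% of 8664 inner models. None of these shares was tested.

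Called genes were found on all large scaffolds. On the 34 scaffolds with at least 40 tested genes, which hold 8489 of them, 17.6% to 32.3% of the genes were called, and the median difference ran from -0.08 to 0.08 on the log2 scale. Lower genes outnumbered higher ones on 23 of these scaffolds, and higher genes outnumbered lower ones on 9. Scaffold00009, with 559 tested genes (5.97%), held 6 of the 40 genes that were at least 2-fold lower and none of the 12 that were higher.

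Called genes often lay beside genes called the same way. Among 8807 pairs of adjacent tested genes, 217 were both higher and 276 both lower in blue, and 266 were called in opposite directions. The neighbour of a higher gene was higher in 19.3% of cases, while 12.8% of the genes in these pairs were higher. The neighbour of a lower gene was lower in 22.3% of cases, against 14.1%. Split by orientation, the share for lower genes was 28.4% in divergent pairs (14.6% of the genes there were lower), 20.1% on the same strand (13.4%) and 17.8% in convergent pairs (14.1%). For higher genes the shares were 21.1%, 18.2% and 18.6%, while 12.8%, 12.4% and 13.1% of the genes in these pairs were higher. With under 200 nt between the models, the shares for higher genes were 17.1% in divergent (12.2% of the genes there were higher), 21.0% in same-strand (12.4%) and 20.2% in convergent pairs (13.3%). For lower genes they were 29.8% (14.4% of the genes there were lower), 25.7% (13.1%) and 16.6% (14.1%). Divergent pairs are transcribed away from each other and can share the stretch between their starts. Their differences correlated at 0.19 across 3004 pairs, those of same-strand pairs at 0.11 across 2844 and those of convergent pairs at 0.08 across 2959. All pairs come from the same 6 libraries and are not replicates, and these shares were not tested.

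Some called genes formed runs. There were 4 runs of at least 4 adjacent tested genes that were all higher, with 18 genes, and 11 runs that were all lower, with 47 genes. They held 1.53% of the higher and 3.62% of the lower calls. Lower calls were also more numerous, 1297 against 1174. With equal library medians the calls were 1468 higher and 1111 lower, and runs were not counted on those calls. The number of runs was not tested. The longest run lay on scaffold00267 (346152 to 363697) and held 7 genes on both strands, with differences from -0.72 to -0.25 and a median of -0.51. In the fit of 14 libraries 4 of the 7 were called, so the run did not hold at that length. Its most abundant gene (355232 to 357417) held 206 ± 3.84 FPKM in blue and 339 ± 10.1 FPKM in red (SD, n = 3; log2 difference -0.71, limma adjusted p = 1.93e-06). Further along the same scaffold, a pair of models on the minus strand with 126 nt between them were at least 2-fold lower. The left one (428977 to 429987) held 5.79, 7.36 and 7.42 FPKM in blue and 20.9, 17.2 and 22.8 FPKM in red. The right one (430114 to 430927) held 6.46, 4.71 and 6.94 FPKM in blue and 25.4, 27.1 and 21.1 FPKM in red. In both models every blue library was under every red one.

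Another run of 4 lower genes on scaffold00295 (996950 to 1009323) had a median of -0.62, with its largest difference in a model of 8 exons (31.3 ± 2.92 FPKM in blue against 70.4 ± 4.20 in red). The higher run with the largest median, 0.62, held 5 genes on scaffold00354 (569534 to 583269). Its most changed gene (578604 to 579195) held 101 ± 5.04 FPKM in blue and 57.9 ± 5.38 in red (log2 difference 0.80, limma adjusted p = 3.68e-05). The other run of 5 higher genes began with the convergent pair on scaffold00026 and went on to 1132173, and its last 3 genes differed by only 0.21, 0.36 and 0.31. In the fit of 14 libraries 4 of 5 genes were called in each of these higher runs, and all 4 in the run on scaffold00295. Among the genes next to those with at least 2-fold differences, 9 of 24 neighbours of the higher genes were called higher and 3 lower. Of 79 neighbours of the lower genes, 23 were called lower and 6 higher. Over all tested genes 12.5% were higher and 13.8% lower.

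**Figure D4:**
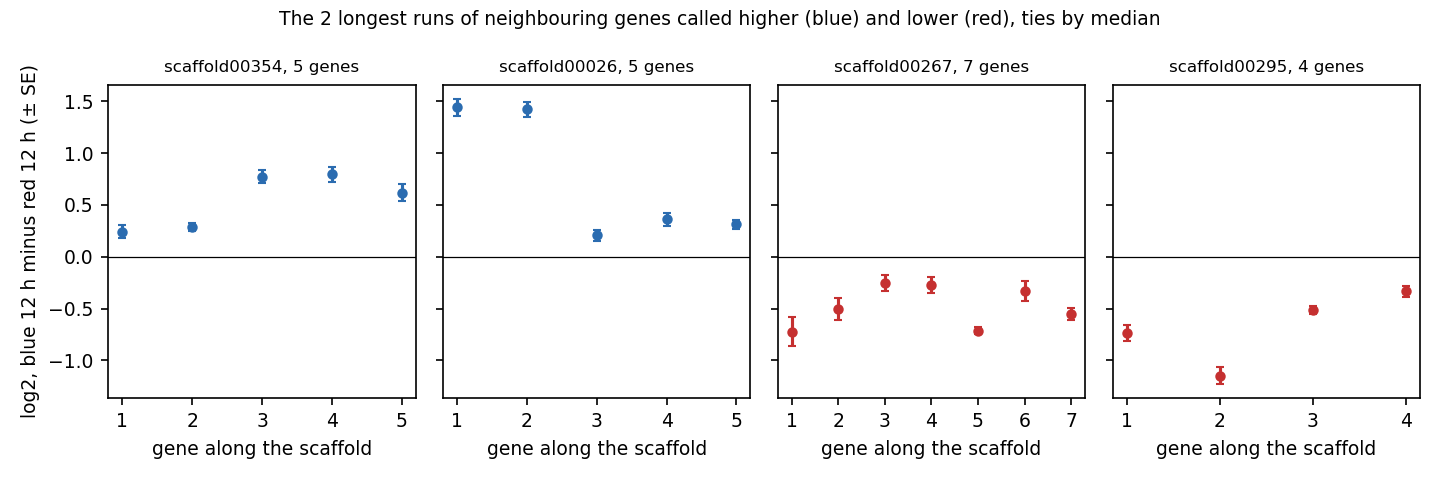
Log2 difference (blue 12 h minus red 12 h, with the SE of the limma fit as bars) of each gene in 2 runs of called genes per direction, in order along the scaffold: the longest ones, where the run on scaffold00295 is the one with the largest median difference of 10 lower runs of 4 genes. Within a run the differences are unequal: on scaffold00026 they fall from 1.44 and 1.42 to between 0.21 and 0.36, and on scaffold00295 they range from -1.14 to -0.33.

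The libraries of 24 h are other libraries than those of 12 h and give a second look at the same contrast. In a fit of the 12 red and blue libraries, 901 of the 9370 genes (9.62%) differed at 24 h, 418 higher (4.46%) and 483 lower in blue (5.15%). Of these, 184 were higher at both hours and 168 lower at both, which is 14.2% of the 12 h calls and 39.1% of the 24 h calls, and 50 were called in opposite directions. Among the 12 h calls 66.4% had the same sign at 24 h, against 55.1% of all tested genes. The count at 24 h depends on single libraries. It was 3041 without red 24 h library 3, and 319, 332 and 354 without blue 24 h library 1, 2 or 3. Without red 24 h library 1, which lies far from its group, 2329 genes (24.9%) differed, 410 were higher and 472 lower at both hours, 130 were opposite, and 77.1% of the 12 h calls had the same sign, against 60.9% of all genes. By direction, 75.1% of the higher and 79.0% of the lower genes then kept their sign. Across all tested genes the differences of the 2 hours correlated at 0.20 with red 24 h library 1 and at 0.27 without it. With only the 6 libraries of 24 h in the fit, 44 genes were called at 24 h.

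**Figure D5:**
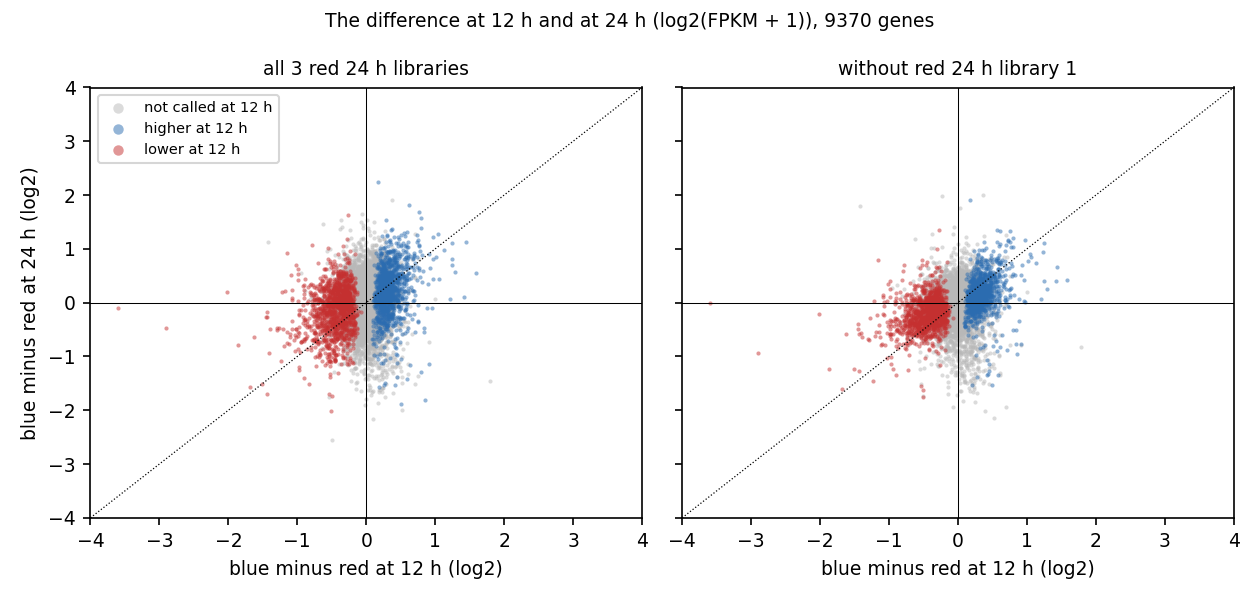
Difference between blue and red on the log2(FPKM + 1) scale at 24 h (vertical axis) against that at 12 h (horizontal axis) for 9370 genes, with all libraries (left) and without red 24 h library 1 (right); the dotted line marks equal differences. Genes called lower at 12 h (red) and higher at 12 h (blue) mostly keep their sign, 66.4% of them on the left and 77.1% on the right, and the leftmost point, at -3.60 at 12 h, lies at -0.10 and -0.01 at 24 h.

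The genes with the largest differences at 12 h mostly kept their direction at 24 h. All 12 genes that were at least 2-fold higher were higher again at 24 h, with a median of 0.75 on the log2 scale against 1.24 at 12 h, and 7 of them were called (11 without red 24 h library 1). Of the 40 lower genes 31 were lower again, with a median of -0.49 against -1.18, and 10 were called (22 without that library, when 33 were lower). None of the 52 was called in the opposite direction at 24 h in either fit. The lower gene on scaffold00066 differed as much at 24 h as at 12 h: it held 51.4, 51.8 and 47.9 FPKM in blue 24 h and 142, 157 and 153 FPKM in red 24 h, a log2 difference of -1.56 after -1.69.

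For some genes the difference itself changed between the hours. The interaction of light and time passed in 170 of the 9370 genes (1.81%), and in 1195 (12.8%) without red 24 h library 1. Among the 2471 genes called at 12 h, it passed in 71, and in 65 of these, 31 higher and 34 lower genes, the change went against the direction of 12 h. Choosing genes by their 12 h difference favours such a change, because the choice and the interaction share the 12 h libraries. The clearest case was scaffold00245.g6412, for which red stood at the level of blue at 24 h. The red 24 h libraries held 1.32, 0.895 and 0.933 FPKM and the blue 24 h ones 0.908, 1.15 and 0.665 FPKM. Its difference changed by 3.50 ± 0.27 (SE; limma adjusted p = 0.000229). In scaffold00247.g7013 blue 24 h held 13.9, 12.8 and 12.1 FPKM, above every blue 12 h library, and red 24 h held 9.16, 23.6 and 27.6 FPKM. The change of 2.44 ± 0.44 passed (adjusted p = 0.0219).

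Both named higher genes had higher mean levels at 24 h than at 12 h in each colour, a change over time that was not tested here. In scaffold00127.g4166 red 24 h held 27.0, 34.7 and 34.4 FPKM and blue 24 h 44.6, 46.3 and 49.7 FPKM, so blue was still above every red library, with a log2 difference of 0.54 (limma adjusted p = 0.0224). The gap had narrowed by 1.04 ± 0.18 since 12 h (adjusted p = 0.0170). In scaffold00026.g1401 blue 24 h held 130, 130 and 132 FPKM and red 24 h 30.0, 70.0 and 96.1 FPKM, the lowest being library 1. Its difference of 1.14 at 24 h passed (adjusted p = 0.0427) and its change of -0.30 since 12 h did not (0.701), whereas without red 24 h library 1 the change was -0.78 (0.00537). Its convergent neighbour (1124836 to 1125853) differed from it at 24 h, with means of 124 FPKM in red and 128 FPKM in blue. That difference of 0.10 did not pass (limma adjusted p = 0.724), and its change since 12 h did (0.0430). Without red 24 h library 1 the difference of the neighbour was 0.39 (0.00343). The model on scaffold00145 had reached 75.2 to 76.0 FPKM in blue 24 h and 69.1 to 74.7 FPKM in red 24 h, near its white level in both colours, and its difference at 24 h of 0.06 did not pass (0.660). The model on scaffold00354 at 397542 ended at 31.2 to 34.4 FPKM in blue 24 h and 15.9 to 45.1 FPKM in red 24 h, so its colours overlapped. The run of 5 higher genes on scaffold00354 was higher again in its median at 24 h, 1.04 without red 24 h library 1. Of its 5 genes, 4 were called at 24 h, and all 5 without that library. These calls of runs, and those that follow, are counted in either direction. The other runs described above had 1 of 5 genes called at 24 h on scaffold00026 (3 without that library), 3 of 7 on scaffold00267 (4) and 1 of 4 on scaffold00295 (4). Without that library their median differences at 24 h were 0.39, -0.33 and -0.49. With all libraries the median level of the lower run on scaffold00267 was 35.7 FPKM in red 24 h and 53.9 FPKM in blue 24 h. Of a run of 4 higher genes on scaffold00330 (107320 to 122101), 0 were called at 24 h in the fit of 12 libraries and 2 without red 24 h library 1. The median of the run without that library was -0.23.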

How the data were processed

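Total RNA of 15 libraries was sequenced after Trizol extraction and TruSeq library preparation, per the labels' protocols. The authors deposited FPKM values per gene model. Among the tools in the submitters' processing notes are Cufflinks 2.0.4, TopHat2 2.0.4 and TopHat. Settings, strandedness and a genome build are not given in the sources used here, and coordinates follow the deposited models, named IMET v2. Whole fragments were recovered from the FPKM steps (tolerance 0.1 fragments; 100% of the low values tested came out whole) and used for depth, for low values and for 1 alternative.

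The 6 libraries of red 12 h and blue 12 h were fitted with limma 3.58.1 in R 4.3.3 (lmFit, contrast, eBayes with a trend) on log2(FPKM + 1), two-sided, with Benjamini-Hochberg adjustment over the 9370 genes of at least 1 FPKM in 3 or more of them. Fold changes on this scale understate those of low genes. The 24 h comparison and the interaction used the 12 red and blue libraries. The procedure was tested on simulated data. Descriptions used pandas 2.3.3, numpy 2.4.6 and scipy 1.17.1 in Python 3.11.15, and matplotlib 3.10.9 drew the figures.

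Named genes are the 2 higher and 2 lower with the largest log2 difference among genes that passed, did not overlap and averaged at least 10 FPKM in blue or in red, and DGAT1A. The reference table of 160 organelle genes (assembly ASM5162214v2) matched 0 of the IDs. The members, lists, tests and rules were chosen with earlier results of these data known. Alternatives covered the pseudocount, filter, scaling, length trend, libraries in the fit, replicate block, test options and each library left out. The repeated column name in the table of red 12 h was resolved through the sample name in its rows.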

Additional observations from a re-analysis of the deposited data

Results flagged for a closer look

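The difference between blue and red changed from 12 h to 24 h in 170 of 9370 genes, by limma's interaction test over 12 libraries with Benjamini-Hochberg adjustment. Without red 24 h library 1 the number was 1195.

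Of the named genes, 3 were among the 170. In scaffold00127.g4166 the change of the log2 difference was -1.04, with blue above red at both hours. In scaffold00245.g6412 it was 3.50, as the gap of 12 h was gone at 24 h. In scaffold00247.g7013 it was 2.44, with blue at 2.51 ± 0.708 FPKM (SD, n = 3) at 12 h and 12.9 ± 0.904 at 24 h, and red at 25.0 ± 2.18 and 20.1 ± 9.70. These genes were named for their 12 h difference, which shares the 12 h libraries with this test.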

How the results depend on the processing

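The 4 named genes kept their direction and their call in the 22 alternatives run for single genes, and DGAT1A was called in none of these. In limma's treat with a 2-fold minimum 0 higher genes were called, so neither named higher gene passed there. The 4 were chosen as large called differences on the same libraries, and some alternatives could not change the difference itself. Across 23 alternatives the 2471 genes called at 12 h moved by over 1.5 times with all 15 libraries (268; 70 higher, 198 lower), with all but red 24 h library 1 (1544; 660 higher), with the 12 red and blue libraries (276; 81 higher, 195 lower) and with a 2-fold minimum in limma's treat (5; 0 higher, 5 lower). The fit without the red 24 h group gave 739 higher genes. The 52 genes of at least 2-fold numbered 94 with a pseudocount of 0.1 FPKM, 102 with voom on recovered fragments and 5 with treat. When each of the 6 libraries was left out in turn, 1942 to 2081 genes were called, 923 to 1005 higher and 1007 to 1136 lower, and 57 to 64 of at least 2-fold. Higher genes made up 47.5% of the calls, 56.9% with equal library medians, 56.6% without the length trend, 50.2% after quantile normalization, 39.97% with voom and 26.1% with 15 libraries.

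The interaction gave 278 genes after quantile normalization and 86 with the replicate block. With each of the 12 libraries left out it gave 58 to 1195 genes, 1195 without red 24 h library 1 and 712 without library 3. It gave 58 to 70 without any 1 of the red 12 h or blue 12 h libraries and 58 to 68 without any 1 of the blue 24 h libraries. The 24 h count was then 319 to 3041, 2329 without red 24 h library 1, 3041 without library 3 and 319 to 354 without any 1 of the blue 24 h libraries. Chosen after seeing the data, a fit of only the 6 libraries of 24 h gave 44 genes and of the 5 other than red 24 h library 1 gave 1669. The cause of these changes was not tested.

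Replicate numbers recur in both colours. Deviations from the group means correlated at -0.0015, -0.0053 and -0.0074 between same-numbered libraries and at -0.025 to 0.029 between the others. No shared deviation was thus seen, but this cannot show whether libraries were paired by design, which the labels do not say. With the replicate block 2313 genes were called at 12 h.

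The spread was larger in low genes, and the part of depth in it was not tested: the median coefficient of variation in red was 18.7% under 5 FPKM and 3.44% over 100 FPKM.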
